A study of Mus musculus with 24 samples.

Results

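Transcripts of 9 secreted or membrane WNT antagonists were followed through the conversion of mouse epiblast stem cells into definitive endoderm, with and without degradation of the transcription factor OTX2. The genes were chosen by name, with earlier results of these data known. They were Dkk1, Dkk2, Dkk3, Sfrp1, Sfrp2, Sfrp5, Frzb, Shisa2 and Wif1. All 9 were found once each among the 18205 genes of the deposited table. The filter on low values, at least 10 in at least 3 libraries, kept 8 of them and left out Wif1. All cells carried OTX2-dTAG-EGFP, a fusion that the small molecule dTAG13 sends to the proteasome, on a BL6/129 hybrid background. The 8 groups covered 4 stages: EPI, the epiblast stem cells at the start, PS, cells taken to the primitive streak stage, and DE1 and DE2, definitive endoderm after 24 h and 48 h. Each stage was treated for 21 h with dTAG13 or with its vehicle DMSO. EPI medium held 20 ng/ml activin A with 12.5 ng/ml FGF2, plus NVP (175 nM). For the streak step, 40 ng/ml of activin A was combined with 3 µM CHIR for 16 h, shorter than the exposure, and when the exposure began is not clear from the labels. For endoderm, activin A was raised to 100 ng/ml and LDN (100 nM) was added. CHIR is listed for the PS groups alone, so stage and CHIR change together between PS and DE1. Each group had 3 polyA RNA libraries, from the cell lines 7H, 7H1 and 7H2, whose relation to each other the labels do not state. No group lacked the tag, so loss of OTX2 and any other action of dTAG13 cannot be told apart.

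WNT ligands act through Frizzled receptors and the co-receptors LRP5 and LRP6 to stabilise beta-catenin, which drives the formation of the primitive streak and posterior fates. Secreted antagonists from the anterior endoderm protect the future head from this signal. DKK1 and DKK2 bind the LRP co-receptors, while DKK3 is a divergent family member with no settled role at that receptor. The secreted frizzled-related proteins SFRP1, SFRP2, SFRP5 and FRZB (also called SFRP3) carry a Frizzled-like domain and bind WNT ligands outside the cell, as does WIF1. SHISA2 sits in the membrane of the endoplasmic reticulum and retains immature Frizzled and FGF receptors there. CHIR inhibits GSK3 and thereby activates beta-catenin inside the cell, downstream of the step these antagonists block.

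Values are normalised read counts, and the libraries summed to 24.42 to 27.25 M. Log2 fold changes and tests are from limma on log2 of the value plus 1 over 15037 genes, with Benjamini-Hochberg adjustment over all of them. A gene is called at an adjusted p under 0.05. A fold given for a mean is instead the ratio of the group means of normalised counts. It need not match the log2 fold change beside it. The 95% intervals are not adjusted. In vehicle cells the streak markers T and Mixl1 had their highest means in PS, at 28106 ± 5332 and 14611 ± 553, against 728 ± 352 and 2894 ± 200.1 in DE1. The sum of the 8 streak markers did not mark PS alone. It was 3757 to 9436 in EPI, 95515 to 100160.0 in PS and 93132 to 101240.0 in DE1, where Lhx1 with a mean of 58068 was its largest term. The 8 endoderm markers, among them Sox17, Foxa2 and Cxcr4, summed to 15694 to 27410.0 in PS, 98505 to 121870.0 in DE1 and 73542 to 115940.0 in DE2. In such bulk libraries, fewer cells making a transcript and less transcript per cell cannot be told apart.

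Dkk1, Sfrp5 and Shisa2 were lower with dTAG13 in both endoderm groups, and their promoters are shown because of that common change, with that of Sfrp2 because it alone held a homeobox motif of the OTX type. RefSeq windows of 300 bases, from 250 before to 50 after the start of transcription (build GRCm38.p6), matched 7 of the 9 members. They lie at chr19:30549447-30549746 on the minus strand for Dkk1, chr19:42202203-42202502 on the minus strand for Sfrp5, chr14:59625031-59625330 on the plus strand for Shisa2 and chr3:83766071-83766370 on the plus strand for Sfrp2. Each is written 5′ to 3′ along its gene, and capitals mark motif matches.
Dkk1: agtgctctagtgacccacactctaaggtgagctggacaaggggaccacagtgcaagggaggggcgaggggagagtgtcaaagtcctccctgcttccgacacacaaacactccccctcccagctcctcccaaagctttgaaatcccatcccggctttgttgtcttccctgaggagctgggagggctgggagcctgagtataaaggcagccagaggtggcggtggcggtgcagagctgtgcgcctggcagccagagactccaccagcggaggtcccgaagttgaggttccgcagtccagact
Sfrp5: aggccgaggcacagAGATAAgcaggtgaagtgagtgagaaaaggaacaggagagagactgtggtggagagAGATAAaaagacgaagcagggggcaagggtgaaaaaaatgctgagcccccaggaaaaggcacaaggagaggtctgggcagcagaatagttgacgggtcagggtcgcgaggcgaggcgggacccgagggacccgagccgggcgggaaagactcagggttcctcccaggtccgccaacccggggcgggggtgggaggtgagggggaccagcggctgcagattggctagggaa
Shisa2: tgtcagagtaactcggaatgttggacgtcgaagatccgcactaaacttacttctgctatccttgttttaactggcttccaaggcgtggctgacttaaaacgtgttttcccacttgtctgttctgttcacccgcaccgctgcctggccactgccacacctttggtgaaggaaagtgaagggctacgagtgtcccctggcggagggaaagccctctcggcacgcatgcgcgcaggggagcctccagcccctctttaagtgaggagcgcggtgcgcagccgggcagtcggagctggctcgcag
Sfrp2: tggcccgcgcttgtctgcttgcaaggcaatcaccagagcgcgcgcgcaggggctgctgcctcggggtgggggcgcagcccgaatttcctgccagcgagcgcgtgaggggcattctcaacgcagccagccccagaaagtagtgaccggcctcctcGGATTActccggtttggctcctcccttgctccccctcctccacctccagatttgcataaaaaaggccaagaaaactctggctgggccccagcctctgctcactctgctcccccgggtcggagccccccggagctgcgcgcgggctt

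The motifs searched on both strands were TAATCC for OTX and other bicoid-type homeobox factors, CTTTGAT for TCF and LEF, TGTTTAC for FOXA and AGATAA for GATA. The OTX-type motif matched 1 of the 7 windows, that of Sfrp2, where the letters GGATTA on the strand shown begin at position 155 of the window. Of all 32851 promoter windows, 7.06% held this motif. The window of Sfrp5 held the GATA motif at positions 15 and 71, and 11.2% of all windows held it at least once. The 7 windows of the members had no match to CTTTGAT or TGTTTAC, which 3.73% and 3.65% of all windows held. No match overlapped another, and the windows of Dkk1, Shisa2, Frzb, Dkk2 and Wif1 held none of these letters. A match is a description of letters and not of binding, and OTX2 binding was not measured in these libraries.

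In vehicle cells the antagonists formed different sequences of expression rather than 1 common rise. Levels compared between genes are given per kb of annotated exon. In EPI the highest were Sfrp1 with 189 ± 10.9 and Sfrp2 with 183 ± 62.0 normalised counts per kb (SD, n = 3). In PS Frzb led with 845 ± 180.0 per kb, followed by Dkk1 with 462 ± 173. In DE1 the order was Sfrp1 with 7655 ± 579, Shisa2 with 2907 ± 384, Frzb with 1611 ± 181 and Dkk1 with 1403 ± 279.8 per kb. In DE2 Sfrp1 with 5042 ± 1246 and Dkk1 with 4422 ± 541 stood highest, ahead of Shisa2 with 2946 ± 825 and Sfrp5 with 1552 ± 201. The libraries of Sfrp1 and Dkk1 overlapped in DE2, from 3778 to 6268 and from 3857 to 4935 per kb. Summed over the 9 genes, the level per kb was 514 to 674 in EPI, 1508 to 2511 in PS, 12320.0 to 15464 in DE1 and 12093 to 17094 in DE2.

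From EPI to PS, 3 of the 8 tested members were called higher and 1 lower, where 27.5% of all tested genes were called. These were Frzb, Dkk1 and Sfrp1 upward and Dkk3 downward. From PS to DE1, 4 were called higher and 2 lower, against 44.1% of all genes, with Shisa2, Sfrp1, Sfrp5 and Dkk1 upward and Sfrp2 and Dkk2 downward. From DE1 to DE2, 3 were called higher and 1 lower, against 39.3%, with Dkk2, Dkk3 and Dkk1 upward and Frzb downward. The median log2 fold change over the tested members was 0.09, 1.30 and 0.97 in these 3 steps, and over all tested genes it was -0.01, -0.01 and 0.02. Over longer spans, 5 members were called higher and 3 lower in DE1 than in EPI, against 49.4% of all genes. In DE2, 5 were called higher and 1 lower than in EPI, against 53.9%, and 5 higher and 2 lower than in PS, against 54.5%. These comparisons share groups with each other, and those that take in PS also differ in CHIR.

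**Figure D1:**
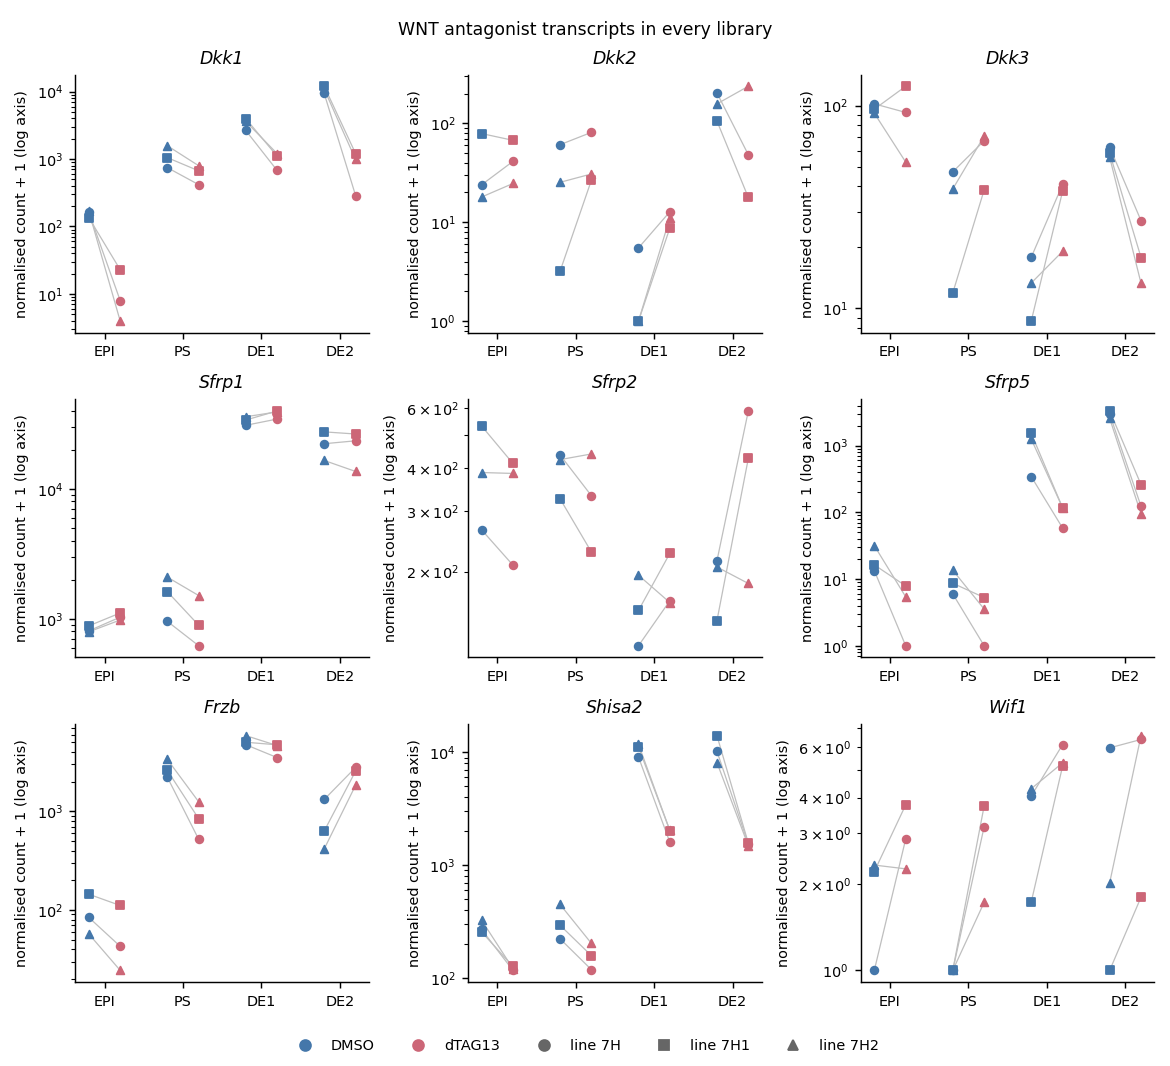
Normalised count plus 1 of each of the 9 genes on a log axis, for every library, by stage. Blue points are DMSO, red points dTAG13, the marker shape gives the cell line, and a grey line joins the libraries of a line at a stage. In DE2 the dTAG13 points of Dkk1, Sfrp5 and Shisa2 all lie below the DMSO points, and those of Frzb all lie above.

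With dTAG13, 2 of the 8 tested members were called in EPI, Dkk1 and Shisa2, both lower, where 0.0865% of tested genes were called in either direction. The members were chosen with earlier results of these data known, so the shares of all genes are a description and not a test. In PS limma called 0 of the 8, against 0.219% of all genes, and 5 had an unadjusted p under 0.05. In DE1 3 were called, all lower, against 7.76% of genes, namely Shisa2, Sfrp5 and Dkk1. In DE2 4 were called lower (Shisa2, Dkk1, Sfrp5 and Dkk3) and 1 higher (Frzb), together against 17.0% of genes. The median log2 fold change over the tested members was -0.55 in EPI, -0.74 in PS, -0.06 in DE1 and -1.51 in DE2, and over all tested genes it lay between -0.01 and 0. When the cell line entered as a block, 3, 3, 5 and 6 members were called in EPI, PS, DE1 and DE2, against 0.572, 2.41, 15.8 and 27.5% of all genes. Without line 7H 0, 0, 2 and 3 members were called in EPI, PS, DE1 and DE2, against 0.0204, 0.143, 4.80 and 11.7% of all genes. Without 7H1 there were 1, 0, 1 and 3, against 0.0273, 0.0681, 3.20 and 6.52% of all genes, and without 7H2 0, 0, 1 and 4, against 0.0204, 0.0613, 2.55 and 9.42% of all genes.

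**Figure D2:**
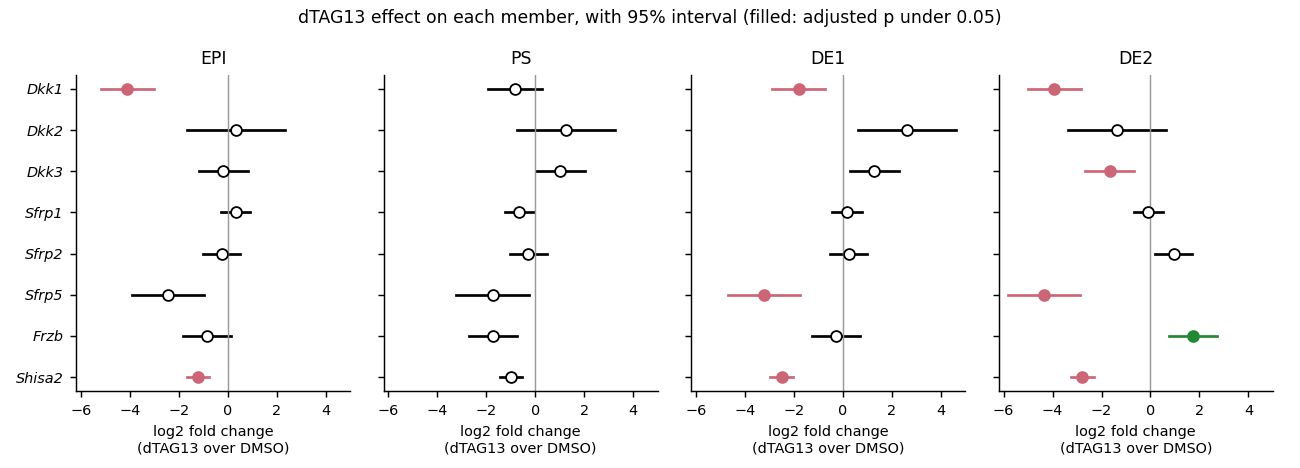
Log2 fold change of dTAG13 over DMSO for the 8 tested members at each stage, with the 95% interval from limma. Filled points are called, red for lower and green for higher. Dkk1, Sfrp5 and Shisa2 lie to the left of 0 in every panel, and Frzb lies left of 0 in PS and right of it in DE2.

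Dkk1 (chromosome 19, 30545863 to 30549665, minus strand) encodes the best-known LRP-binding antagonist. In the lines 7H, 7H1 and 7H2, its normalised counts in EPI were 160.1, 134 and 167 with DMSO and 6.94, 21.8 and 2.95 with dTAG13. In PS they were 744, 1048 and 1573 with DMSO and 415, 667 and 793 with dTAG13. The groups were far apart in EPI and overlapped in PS, although each line was lower with dTAG13. In DE1 the counts were 2648, 3961 and 3607 with DMSO and 676, 1101 and 1200.4 with dTAG13, and in DE2 9362, 11976 and 10859 and 286, 1204 and 982. No dTAG13 library reached a DMSO library in either endoderm group. The mean was 14.6-fold lower in EPI (log2 fold change -4.11, SE 0.52, adjusted p = 0.0016). It was 3.43-fold lower in DE1 (log2 fold change -1.80, SE 0.52, adjusted p = 0.038) and 13.02-fold lower in DE2 (log2 fold change -3.93, SE 0.52, adjusted p = 2.3e-05). In PS the ratio of means was 1.79 and the gene was not called (log2 fold change -0.83, SE 0.52, adjusted p = 0.74, 95% interval -1.91 to 0.26).

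In vehicle cells Dkk1 rose at each step, from 154 ± 17.6 in EPI to 1122 ± 419 in PS, 3405 ± 679 in DE1 and 10732 ± 1312 in DE2 (SD, n = 3), with adjusted p = 0.000605, 0.0145 and 0.0153 between neighbours. With dTAG13 the mean was 625 ± 192 in PS, 993 ± 279 in DE1 and 824 ± 479 in DE2. The difference between the dTAG13 effects in DE2 and DE1 was -2.13 on the log2 scale, which was not called (adjusted p = 0.0957, 95% interval -3.67 to -0.60). The call in EPI was lost without line 7H (adjusted p = 0.109) and without 7H2 (0.226), and with the compared groups alone (0.244), with 0.000505 to 0.244 over the 12 alternatives. The call in DE1 was lost when any of the 3 lines was left out (adjusted p = 0.146, 0.138 and 0.172), with 0.00265 to 0.172 over the 12 alternatives. The rise from PS to DE1 was lost without 7H or 7H1 (adjusted p = 0.0587 and 0.059, with 0.00176 to 0.059 over the 12 alternatives), and that from DE1 to DE2 without 7H or 7H2 (0.0623 and 0.065, with 0.000153 to 0.065 over the 12 alternatives).

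Dkk2 (chromosome 3, 132085292 to 132180304, plus strand), the LRP-binding relative of Dkk1, was low outside DE2. Vehicle levels were 17.0 to 77.9 in EPI, 2.18 to 59.9 in PS, 0 to 4.49 in DE1 and 105 to 202 in DE2. DE1 was the lowest stage and differed from PS (adjusted p = 0.00864), a call lost without 7H2 (0.134, with 0.0028 to 0.134 over the 12 alternatives). PS and EPI were not called apart (adjusted p = 0.509), nor were EPI and DE2 (0.0573). With the block DE2 was called above EPI (adjusted p = 0.0484, with 0.0111 to 0.275 over the 12 alternatives), as it was without 7H1 (0.0111), with a pseudocount of 5 and with the compared groups alone. With dTAG13 the DE1 libraries stood at 11.8, 7.75 and 10.1 against 4.49, 0 and 0 with DMSO. These groups did not overlap, but the vehicle values are those of a few reads and the gene was not called (adjusted p = 0.111). It was called there with the block (adjusted p = 0.0165, with 0.0164 to 0.503 over the 12 alternatives). In DE2 Dkk2 stood at 202, 105 and 156 with DMSO and 47.1, 16.8 and 236 with dTAG13 (7H, 7H1, 7H2). Lines 7H and 7H1 were lower and 7H2 was higher, and the gene was not called (log2 fold change -1.35, SE 0.96, adjusted p = 0.391, 95% interval -3.35 to 0.65). The effect in DE2 minus that in DE1 was -3.96 (adjusted p = 0.0904), called with the block (adjusted p = 0.0123, with 0.0123 to 0.291 over the 12 alternatives). DE2 was above PS in vehicle cells (adjusted p = 0.00858, or 0.0579 without 7H1, with 0.00492 to 0.0579 over the 12 alternatives).

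Dkk3 (chromosome 7, 112116017 to 112159057, minus strand), the divergent Dickkopf gene, was a low gene, and its dTAG13 effect differed between the endoderm days. In DE1 its counts were 16.9, 7.66 and 12.3 with DMSO and 39.9, 36.9 and 18.1 with dTAG13. In DE2 they were 61.4, 57.3 and 54.7 with DMSO and 26.1, 16.8 and 12.3 with dTAG13. Every dTAG13 library lay above the DMSO libraries in DE1 and below them in DE2. The fall in DE2 was called (log2 fold change -1.66, SE 0.48, adjusted p = 0.0198), while the values of DE1 were not (log2 fold change 1.28, SE 0.48, adjusted p = 0.118). DE1 was called with the block (adjusted p = 0.0375, with 0.0375 to 0.494 over the 12 alternatives). The difference between the effects was called at -2.94 (SE 0.68, adjusted p = 0.0117), and that call was lost without any 1 line (0.0829, 0.11 and 0.0999 without 7H, 7H1 and 7H2, with 0.0028 to 0.11 over the 12 alternatives). The fall in DE2 was likewise lost without each line (0.0744, 0.0684 and 0.175) and under quantile normalisation, with 0.00561 to 0.175 over the 12 alternatives. In EPI the ranges were 90.8 to 101 with DMSO and 51.7 to 124 with dTAG13, and in PS 10.9 to 46.1 and 37.4 to 69.8, without a call. Across the vehicle stages the order was DE1, PS, DE2 and EPI, and none of the neighbours in it was called (adjusted p = 0.0604, 0.0645 and 0.218). DE1 was lower than EPI (12.3 ± 4.60 against 95.7 ± 5.17, adjusted p = 3.45e-05) and lower than DE2 (adjusted p = 0.000998). PS was also lower than EPI (adjusted p = 0.00852), which was lost without 7H1 (0.108) and without 7H2 (0.0576), with 0.00536 to 0.108 over the 12 alternatives. With the block DE1 was called below PS (adjusted p = 0.0467, with 0.0354 to 0.283 over the 12 alternatives).

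Sfrp1 (chromosome 8, 23411502 to 23449632, plus strand), which had the highest vehicle mean per kb of the members in EPI and in both endoderm groups, was not called with dTAG13 at any stage. In 1 vehicle library of EPI, that of 7H1, Sfrp2 stood higher (36.5% against 29.9% of the summed level per kb), and in 1 of DE2, that of 7H2, Dkk1 did (37.0% against 31.2%). Vehicle libraries ranged from 793 to 881 in EPI, 955 to 2091 in PS, 30788 to 35824 in DE1 and 16517 to 27405 in DE2. The dTAG13 libraries ranged from 978 to 1108, 619.6 to 1509, 34400.0 to 39717 and 13593 to 26389. In DE1 the log2 fold change was 0.17 (95% interval -0.43 to 0.77) and in DE2 -0.09 (95% interval -0.69 to 0.51). In PS each line was lower with dTAG13, at 55.1 to 72.1% of its vehicle library, and this passed with the block (-0.65, adjusted p = 0.00082, with 0.00082 to 1 over the 12 alternatives). In EPI each line was higher, at 123 to 128%. The effect in PS minus that in EPI was -0.98 (adjusted p = 1, and with the block adjusted p = 0.00359, with 0.00359 to 1 over the 12 alternatives). That in DE1 minus that in PS was 0.82 (adjusted p = 0.444, and with the block adjusted p = 0.000538, with 0.000538 to 0.915 over the 12 alternatives). Across vehicle stages EPI and PS differed (adjusted p = 0.0359, 0.184 without 7H1 and 0.135 without 7H2, with 0.0303 to 0.184 over the 12 alternatives), PS and DE2 differed (adjusted p = 9.95e-10), and DE2 and DE1 were not called apart (adjusted p = 0.0904). DE2 was called below DE1 under 1 of the 12 alternatives, with an adjusted p of 0.01945 to 0.283 over them.

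Sfrp2 (chromosome 3, 83766321 to 83774316, plus strand), whose promoter window holds the OTX-type motif, had vehicle means between 156 and 395, the narrowest span of the 4 frizzled-related genes. The ranges were 264 to 530.3 in EPI, 325 to 436 in PS, 121 to 194 in DE1 and 143 to 214 in DE2. DE1 and DE2 were not called apart (adjusted p = 0.598), nor were EPI and PS (0.941), while DE2 lay below EPI (0.0207, or 0.307 without 7H1, with 0.0062 to 0.307 over the 12 alternatives). The same loss without 7H1 was seen for DE1 below EPI (0.0848 for 0.0053, with 0.00334 to 0.0848 over the 12 alternatives) and DE2 below PS (0.0845 for 0.0157, with 0.00338 to 0.0845 over the 12 alternatives). With dTAG13 the ranges were 208 to 412, 227 to 439 and 161 to 225 in EPI, PS and DE1, overlapping the vehicle each time. In DE2 the libraries stood at 214, 143 and 205 with DMSO and 587, 426 and 184 with dTAG13 (7H, 7H1, 7H2). Lines 7H and 7H1 were higher and 7H2 was not, and the gene was not called (log2 fold change 0.95, SE 0.36, adjusted p = 0.078). It passed with the block (adjusted p = 0.0201, with 0.0201 to 0.506 over the 12 alternatives) and without 7H2 (log2 fold change 1.51, adjusted p = 0.0355). The gene Gm26771, annotated on the opposite strand, overlaps the body of Sfrp2, and without a stated strand setting its reads cannot be told apart from those of Sfrp2.

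Sfrp5 (chromosome 19, 42197971 to 42202252, minus strand), a marker of the anterior and foregut endoderm in mouse embryos, rose from PS to DE1. Its counts in EPI were 12.4, 15.3 and 30.7 with DMSO and 0, 6.89 and 4.42 with dTAG13, and in PS 4.99, 7.65 and 12.6 and 0, 4.29 and 2.55. These levels are low, and the gene was not called there, although it passed in EPI with the block (adjusted p = 0.0339, with 0.0339 to 1 over the 12 alternatives). In DE1 the counts were 343, 1536 and 1256 with DMSO and 57.2, 116 and 116 with dTAG13. In DE2 they were 2972, 3317 and 2556 with DMSO and 122, 259 and 93.2 with dTAG13. Groups did not overlap in either, and line 7H was the lowest of the vehicle libraries in DE1. The mean was 10.8-fold lower in DE1 (log2 fold change -3.23, SE 0.71, adjusted p = 0.00545) and 18.6-fold lower in DE2 (log2 fold change -4.34, SE 0.71, adjusted p = 0.000165). The call in DE1 was lost without 7H1 or 7H2 (adjusted p = 0.0935 and 0.144, with 0.000191 to 0.144 over the 12 alternatives) and with a pseudocount of 0.25 (0.0608), and that in DE2 passed under all 12 alternatives. In vehicle cells the order was PS, EPI, DE1 and DE2. PS and EPI were not called apart (adjusted p = 0.269), DE1 lay above EPI (1.84e-06), and DE2 at 2949 ± 381 was not called above DE1 at 1045 ± 624 (0.0563). With the block DE2 was called above DE1 (adjusted p = 0.0112, with 0.00758 to 0.192 over the 12 alternatives).

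Frzb (chromosome 2, 80411970 to 80447625, minus strand), the frizzled-related gene of streak derivatives, was the 1 member called higher with dTAG13. In PS its counts were 2227, 2608 and 3371 with DMSO and 520.2, 842 and 1250.3 with dTAG13. In DE1 they were 4747, 5026 and 5872 with DMSO and 3513, 4734 and 4649 with dTAG13. In DE2 they were 1319.8, 631 and 415 with DMSO and 2787, 2559.6 and 1840.0 with dTAG13. The dTAG13 libraries lay below the vehicle in PS, just below it in DE1 and above it in DE2, without overlap. The rise in DE2, 3.04-fold in the means, was called (log2 fold change 1.75, SE 0.47, adjusted p = 0.0141), and was lost without any 1 line (0.0591, 0.108 and 0.0512 without 7H, 7H1 and 7H2, with 3.13e-05 to 0.108 over the 12 alternatives). The lower level in PS, 3.14-fold in the means, was not called (log2 fold change -1.72, SE 0.47, adjusted p = 0.194) but passed with the block (adjusted p = 0.000767, with 0.000767 to 0.619 over the 12 alternatives).

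The effect on Frzb in DE2 exceeded that in DE1 by 2.03 on the log2 scale, which was not called (adjusted p = 0.0775) and passed with the block (adjusted p = 0.000513, with 0.000513 to 0.263 over the 12 alternatives). That in DE1 exceeded that in PS by 1.43 (adjusted p = 0.403, and with the block adjusted p = 0.00871, with 0.00871 to 0.721 over the 12 alternatives). In EPI Frzb ranged from 56.1 to 144 with DMSO and from 23.4 to 110.1 with dTAG13. In vehicle cells the order was EPI at 94.2 ± 44.8, DE2 at 789 ± 473, PS at 2735 ± 583 and DE1 at 5215 ± 586. DE2 lay above EPI (adjusted p = 2.33e-05) and below PS (0.0017), and DE1 was not called above PS (0.111). It was called above PS under 1 of the 12 alternatives, with an adjusted p of 0.000966 to 0.304 over them. In dTAG13 cells the mean went from 4299 ± 682 in DE1 to 2396 ± 494 in DE2, and in vehicle cells from 5215 ± 586 to 789 ± 473.

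Shisa2 (chromosome 14, 59625308 to 59631660, plus strand), which retains Frizzled and FGF receptors inside the cell, was lower with dTAG13 in all 3 lines at all 4 stages. In EPI its counts were 267, 254 and 323 with DMSO and 115, 125 and 119.7 with dTAG13, and in PS 221, 292 and 447 and 117, 156 and 201. In DE1 they were 9093, 11133 and 11801 with DMSO and 1593, 2023 and 2026 with dTAG13, and in DE2 10225, 14097 and 8128 and 1540.0, 1561 and 1484. The groups did not overlap at any stage, and the dTAG13 libraries of DE2 lay within 1484 to 1561. The lines retained 37.0 to 49.1% of their vehicle level in EPI, 45.0 to 53.5% in PS, 17.2 to 18.2% in DE1 and 11.1 to 18.3% in DE2. The falls in DE1 (log2 fold change -2.50, SE 0.22, adjusted p = 1.5e-07) and DE2 (log2 fold change -2.79, SE 0.22, adjusted p = 1.89e-08) passed under all 12 alternatives.

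The fall of Shisa2 in EPI (log2 fold change -1.22, SE 0.22, adjusted p = 0.0308) was lost without any 1 line (0.236, 0.414 and 0.198 without 7H, 7H1 and 7H2), without the trend (0.086) and with the compared groups alone (0.322), with 0.000304 to 0.414 over the 12 alternatives. In PS the gene was not called (log2 fold change -0.99, SE 0.22, adjusted p = 0.0739) and passed with the block (adjusted p = 0.00082, with 0.00082 to 0.584 over the 12 alternatives). The effect in DE1 minus that in PS was -1.52 on the log2 scale, a larger reduction in DE1 (SE 0.31, adjusted p = 0.00883, or 0.0709 without 7H and 0.215 without 7H1, with 0.000143 to 0.215 over the 12 alternatives). Between DE1 and DE2 the effect differed by -0.28 (95% interval -0.93 to 0.37, adjusted p = 0.701). In vehicle cells EPI and PS were not called apart (adjusted p = 0.706), nor were DE1 and DE2 (0.983), and the change lay between PS and DE1.

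Wif1 (chromosome 10, 121033960 to 121100650, plus strand), the secreted WNT inhibitory factor, was at the level of single reads throughout and was not tested. Its highest value in any library was 5.58. It was listed at 0 in the 3 vehicle libraries of PS and stood at 0.726 to 2.74 in the dTAG13 libraries there, and in DE1 it stood at 0.729 to 3.30 with DMSO and 4.15 to 5.12 with dTAG13.

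**Figure D3:**
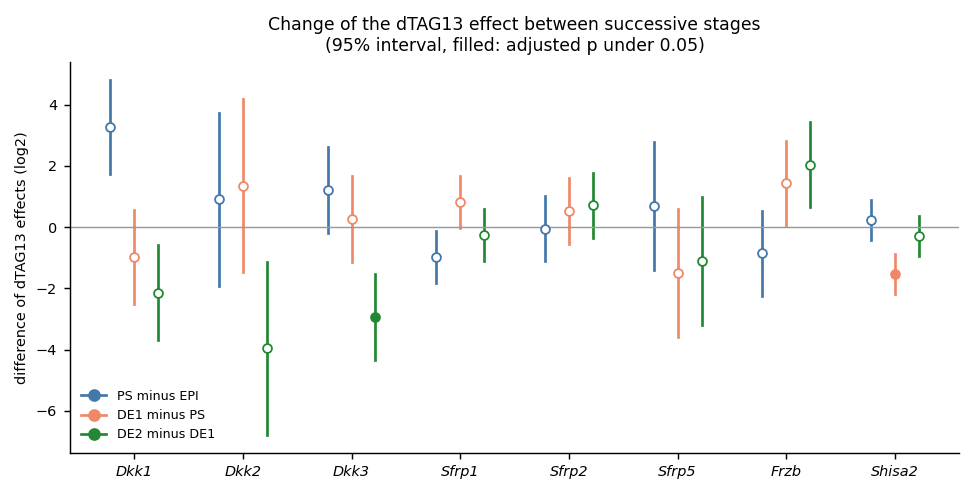
Difference of the dTAG13 effect between successive stages for each tested member, on the log2 scale, with the 95% interval from limma. Filled points are called. Shisa2 between PS and DE1 and Dkk3 between DE1 and DE2 are the called differences, both below 0.

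Of the differences between effects at successive stages, 0 of 8 tested members were called between EPI and PS in limma, against 0.0133% of all genes, and 2 had an unadjusted p under 0.05. Between PS and DE1 the 1 call, Shisa2, stood against 2.14%, and between DE1 and DE2 the 1 call, Dkk3, against 5.95%. With the block 1, 3 and 3 members were called, against 0.259, 6.34 and 15.0% of genes. For Dkk1 the effect in PS was smaller than that in EPI by 3.28 on the log2 scale, the widest gap of the members in that contrast, and it was not called (adjusted p = 0.407, 95% interval 1.74 to 4.82).

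Within the sum of the 9 members, Sfrp1 made up a larger share with dTAG13 than with DMSO at each of the 4 stages, without overlap. Other WNT antagonists are left out of this sum, so it is not the whole antagonist level of the cells. Without division by length, the 9 members summed to 38892 to 57731 with DMSO and 18430 to 32433 with dTAG13 in DE2. In the same unit a list of other WNT inhibitors summed to 46304 to 72889 and 65113 to 82652, and did not fall. In DE1 that list summed to 59825 to 77850 with DMSO and 53171 to 73350 with dTAG13, which overlapped. Of the summed level per kb of the 9 genes in DE2, Sfrp1 made up 31.2 to 36.7% with DMSO and 66.3 to 75.3% with dTAG13. Over the same libraries Dkk1 made up 27.8 to 37.0% and 1.66 to 8.63%, Shisa2 18.3 to 22.5% and 5.25 to 8.62%, Sfrp5 10.2 to 11.3% and 0.903 to 1.69%, and Frzb 1.06 to 2.94% and 9.77 to 12.1%. In DE2 none of these ranges overlapped between the treatments. In EPI the share of Sfrp1 was 29.9 to 35.9% with DMSO and 43.6 to 56.3% with dTAG13, and in PS 14.5 to 20.1% and 20.2 to 25.6%, where the ranges nearly met. In DE1 Sfrp1 made up 52.1 to 57.2% with DMSO and 77.3 to 80.4% with dTAG13, Shisa2 20.1 to 20.8% and 4.43 to 4.77%, and Frzb 10.5 to 11.9% and 11.1 to 12.5%. The summed level with dTAG13 was 9789 to 11732 per kb in DE1 and 4690.5 to 8092 in DE2, in both cases below every vehicle library of that stage. In PS it was 702 to 1347, and in EPI 418 to 581, which overlapped the vehicle. These shares follow from the values of the members already given and are a description without a test.

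**Figure D4:**
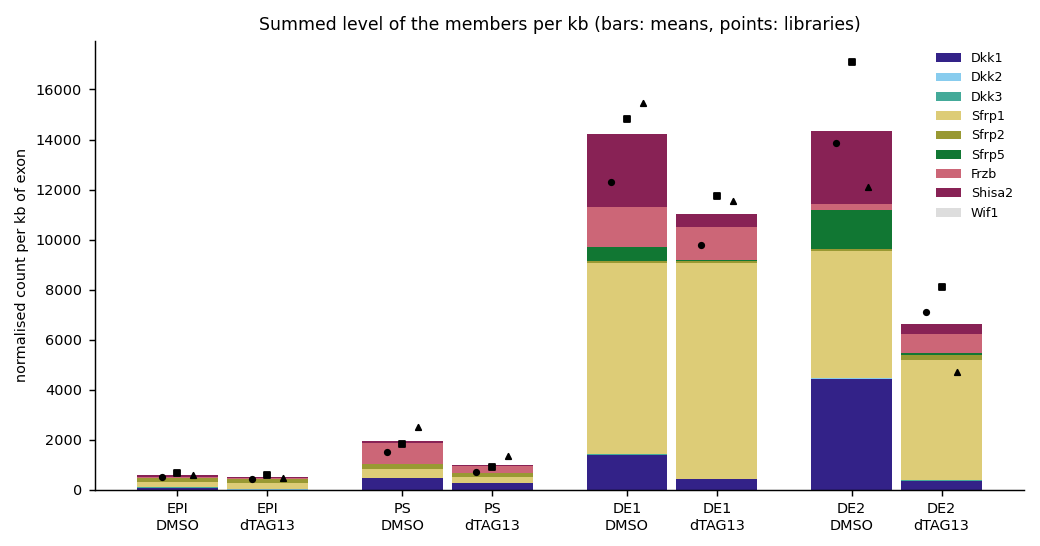
Summed normalised count per kb of exon for the 9 genes, by stage and treatment. Bars stack the group means of the members from Dkk1 at the bottom to Wif1 at the top, and points are the sums of the single libraries (circle 7H, square 7H1, triangle 7H2). The Dkk1, Sfrp5 and Shisa2 blocks are smaller with dTAG13 in DE2, and the Sfrp1 block is of similar height.

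Genes whose pattern over the 24 libraries was most like that of each member were found by Pearson's r on the log scale, among 11341 genes with a mean of at least 50 and an assigned name. The r takes in stage and treatment alike, so a similar gene's level with dTAG13 is part of what chose it, and these are descriptions without a test. Sfrp5 was most like Fzd5, a Frizzled receptor gene (r = 0.967), and then Shisa2 (0.965). Shisa2 was most like Chrnb4, a nicotinic receptor subunit gene (0.976), and Gpc3, a glypican gene (0.974). Dkk1 was most like Tle3, a Groucho-type corepressor gene (0.929), and Gata6, an endodermal GATA factor gene (0.920). Frzb was most like Fscn1, an actin-bundling gene (0.956), and the protocadherin gene Pcdh7 (0.954). Sfrp1 was most like Hpcal1 (0.982) and Fam210b (0.980), Dkk2 like Anxa1 (0.929) and Iglon5 (0.911), and Sfrp2 like Mfsd2a (0.810) and Pdcd5 (0.802). The mean of Dkk3 and of Wif1 was under 50, and no search was made for them.

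The antagonists act on ligands and receptors whose transcripts were also measured. In DE1, 6 of 17 tested genes of a list of other WNT inhibitors were called higher with dTAG13 and 1 lower, and in DE2 4 were called higher. The list was led in DE1 by Nkd2, an intracellular inhibitor of Dishevelled (165 ± 21.8 with DMSO and 732 ± 94.1 with dTAG13, log2 fold change 2.14, adjusted p = 1.06e-05), Apcdd1, a membrane inhibitor (log2 fold change 1.90, adjusted p = 0.000324), Igfbp4 (log2 fold change 1.26, adjusted p = 0.00262) and, downward, the DKK co-receptor gene Kremen1 (log2 fold change -0.45, adjusted p = 0.00467). In DE2 it was led by Znrf3, a ligase that removes Frizzled from the surface (log2 fold change 1.14, adjusted p = 0.000464), Apcdd1 (log2 fold change 1.38, adjusted p = 0.00305), Nkd1 (log2 fold change 1.31, adjusted p = 0.00366) and Nkd2 (log2 fold change 1.04, adjusted p = 0.00757). Nkd1, Nkd2, Apcdd1 and Znrf3 are themselves known WNT targets, and whether WNT signalling differed between the treatments was not tested. Of the 8 tested members 4 were called lower and 1 higher in DE2, and of the 17 on this list 0 lower and 4 higher. The share of all tested genes called in either direction was 7.76% in DE1 and 17.0% in DE2. The lists were not tested against each other.

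Of 15 tested WNT ligand genes, 3 were called higher in DE1, and 5 higher and 1 lower in DE2. Wnt4 stood at 208 ± 94.1 with DMSO and 1813 ± 453 with dTAG13 in DE2 (log2 fold change 3.19, adjusted p = 8.38e-07). The other leading ligands in DE2 were Wnt3 (log2 fold change 1.55, adjusted p = 0.000134), Wnt5b (log2 fold change 3.75, adjusted p = 0.000193) and Wnt11 (log2 fold change 1.68, adjusted p = 0.00153). Of 21 tested receptor and R-spondin genes, 3 were called higher and 3 lower in DE1, and 4 and 4 in DE2. Fzd5 was lower, at 33100.0 ± 4387 with DMSO and 4589.6 ± 793 with dTAG13 in DE1 (log2 fold change -2.86, adjusted p = 2.97e-11), while the R-spondin receptor gene Lgr5, a WNT target, was higher, at 620.5 ± 54.6 and 3548 ± 283 (log2 fold change 2.51, adjusted p = 5.19e-06). Both were called in the same direction in DE2 (log2 fold change -2.33, adjusted p = 1.76e-10 and log2 fold change 2.01, adjusted p = 3.23e-05). Of 12 target genes, Axin2 (264 ± 9.44 and 764 ± 45.6, log2 fold change 1.53, adjusted p = 0.00251) and Sp8 (log2 fold change 3.97, adjusted p = 0.00324) were called higher and Tcf7 (log2 fold change -0.41, adjusted p = 0.0134) lower in DE1. There, 9 of the 12 had an unadjusted p under 0.05 in limma. The median log2 fold change over the 12 was 1.499 in DE1, against 0 over all tested genes, and -0.05983 in DE2. In DE2 limma called 0 of the 12 target genes, and 5 had an unadjusted p under 0.05. In EPI Fzd5 was the 1 gene called among the 65 tested genes of the 4 lists, and in PS limma called 0 of them, with 12 at an unadjusted p under 0.05. The share of all genes called in each comparison is that given for the members.

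Markers of other cell types and stages moved with dTAG13 in part, and a sum can go against most of its list, so the median log2 fold change over the tested genes is given beside each sum. The 10 neural markers summed to 360.2 to 426 with DMSO and 691 to 883 with dTAG13 in DE1 (median 0.23), with 1 of 8 tested called, Tubb3, higher. In DE2 they summed to 935 to 1778 and 978 to 1793 (median -0.12), with Elavl3 and Sox1 called higher and Pax3 lower. Dcx was at 0 in the vehicle libraries of DE1, and Neurog2 in the dTAG13 libraries of DE2.

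The 8 axial mesendoderm markers summed to 6030.0 to 7246 with DMSO and 12462 to 14798 with dTAG13 in DE1 (median 0.86), with 0 called by limma and 5 at an unadjusted p under 0.05. In DE2 they summed to 4007 to 5384 and 5088 to 7437 (median 0.71), with Pifo called lower. The 10 mesoderm markers summed to 4887 to 5824 and 6483 to 7660.2 in DE1 (median 0.09), with Kdr called higher, and to 865 to 1093 and 253 to 702 in DE2 (median -0.38), with Tbx1 and Tbx6 called lower and Mesp1 at 0 in every library. The 10 visceral endoderm markers summed to 1295 to 1774 and 956 to 1627 in DE1 (median -1.27), with Hnf4a called lower. In DE2 their sum was 897 to 1456 with DMSO and 1224 to 3205 with dTAG13 while the median was -1.44, with Apob and Rbp4 called higher and Apoa1, Cubn and Amn lower. Ttr and Apoa4 were at 0 in the vehicle libraries of DE1, Afp in its dTAG13 libraries, and Ttr in the dTAG13 libraries of DE2.

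The definitive endoderm markers summed to 71887 to 98072 with dTAG13 in DE1, below every vehicle library (median -0.49), with Sox17 called lower. In DE2 they summed to 77970.0 to 99845, inside the vehicle range (median -0.71), and 4 of 8 were called lower (Gata4, Cxcr4, Sox17 and Gata6). Sox17 and Cxcr4 were also called lower in EPI and in PS, and Gata6 in EPI. The streak markers summed to 73813 to 77485 with dTAG13 in DE1, against 93132 to 101240.0 with DMSO, while their median was 0.69. The lower sum there came with Lhx1, at 58068 ± 3677 with DMSO and 33582 ± 1752 with dTAG13, and Gsc, at 13963 ± 814 and 7007 ± 229. The means of the other 6 were higher with dTAG13, among them Mixl1 at 2894 ± 200.1 and 8237 ± 523, and the 1 call was Wnt3, higher. In DE2 the streak sum was 44135 to 67581 with DMSO and 17860.0 to 27941 with dTAG13 (median 0.99), with Gsc and Lhx1 called lower and Wnt3 and Mixl1 higher. The 9 epiblast markers summed to 66482 to 70267 with DMSO and 48438 to 49620.0 with dTAG13 in DE1 (median 0.07), with Dnmt3b and Fgf5 called lower. In DE2 they summed to 49705 to 59177 and 39146 to 45884 (median -0.48), with Fgf5 called lower and Zic2 and Sox3 higher. The part of these cell types in the results for the antagonists was not tested.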

How the data were processed

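PolyA RNA was sequenced in 24 libraries. The signal deposited by the authors is a table of normalised read counts; the submitters' processing notes name DESeq2 and the build mm10, without versions. No source used here names the aligner, the counting tool or whether strand was used. Between 53.3 and 71.4% of each library's normalised values above 0 and below 6 came within 0.1 of whole reads. Reads were therefore not recovered and no count model was used. The estimated depth was 16.8 to 33.5 M reads per library, and values of a few reads are imprecise.

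From there, log2(value + 1) was fitted with limma (version 3.58.1, in R 4.3.3 with statmod 1.5.0), using 8 group means, an intensity trend and robust empirical Bayes, on 15037 genes that reached 10 in 3 or more libraries, with 16 residual degrees of freedom. Tests were two-sided. Such fold changes understate the change of low genes. The step was tested on simulated counts with the same dispersion for all genes and no differences between lines, so that test does not cover the pairing by line. P-values rest on the spread between 3 lines and speak for these lines. Libraries with the same number come from the same line: their deviations from group means correlated at 0.0703 to 0.381, highest for the own line in 12 of 12 cases. The block, an alternative, is a line term within each stage for dTAG13 effects and a common line term for stage steps. The other alternatives were pseudocounts of 5 and 0.25, no filter and one at 50, equal totals, quantile normalisation, no trend, fits of the compared groups alone, and leaving out each line.

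Coordinates and exon lengths are from GENCODE M21 (GRCm38, the mm10 assembly), promoters from RefSeq (GRCm38.p6). Of the gene IDs 18116 matched, and 70 stayed unnamed. Named genes were the 9 members, the 2 genes most like each, and up to 4 called genes per WNT list and stage with the smallest p, all chosen, as were members and lists, with earlier results of these data known. The values of 1 marker gene are not reported here. Python 3.11.15, pandas 2.3.3 and matplotlib 3.10.9 were used for tables and figures.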

Additional observations from a re-analysis of the deposited data

Results flagged for a closer look

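The dTAG13 effect on Shisa2 differed between PS and DE1, by -1.52 on the log2 scale (SE 0.31, adjusted p = 0.00883 in limma), with all 3 lines lower at both stages. The effect on Dkk3 differed between DE1 and DE2, by -2.94 (SE 0.68, adjusted p = 0.0117), with all 3 lines higher in DE1 and lower in DE2. Both were singled out because the test of the difference itself passed, and Dkk3 is a low gene, at 7.66 to 16.9 in the vehicle libraries of DE1. The Dkk3 call was lost without any 1 line (adjusted p = 0.0829, 0.11 and 0.0999 without 7H, 7H1 and 7H2). The Shisa2 call was lost without 7H (0.0709) and without 7H1 (0.215). A test of outlying libraries was not made, since groups held 3.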

How the results depend on the processing

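Over the alternatives, 1170 of the values of single members kept their direction and side of the threshold, 41 lost a call, 25 gained one and 12 changed sign. Shisa2 in DE1 and Shisa2, Dkk1 and Sfrp5 in DE2 kept their calls with dTAG13 under all 12. The replicate block called 3 members in PS, 5 in DE1, and 1, 3 and 3 in the differences PS minus EPI, DE1 minus PS and DE2 minus DE1. Without trend 1 member was called in EPI, and with the compared groups alone 0 in EPI and 2 in the difference DE2 minus DE1. Leaving out 1 line gave 0 to 1 members in EPI, 1 to 2 in DE1, 3 to 4 in DE2, 2 to 4 for vehicle PS minus EPI, 0 to 1 in the difference DE1 minus PS, and 0 in DE2 minus DE1 whichever line was left out. The cause was not tested, beyond fewer libraries. The sign changes, all of uncalled values, were Dkk3 in EPI (0.117) and Sfrp1 in DE2 (0.0103) with dTAG13 and Shisa2 from EPI to PS (-0.0386) and DE1 to DE2 (0.255) without 7H2. Without 7H1 they were Dkk2 from EPI to PS (0.921) and the differences PS minus EPI of Dkk2 (-0.274) and Sfrp2 (0.00587), and without 7H Sfrp2 from EPI to PS (-0.29) and DE1 to DE2 (-0.00959). With equal totals they were Sfrp2 from EPI to PS (-0.0286) and Shisa2 from DE1 to DE2 (0.0233, or 0.0461 with quantile normalisation). Depth limits Wif1, Dkk2 and Dkk3, and Sfrp5 in EPI and PS. Calls over all genes that moved by over 1.5 times follow. For EPI they were 13 and 86 with the block, 4 without trend, 2 with the compared groups alone, 3 to 4 without 1 line. For PS they were 33 and 362 with the block, 11 with the compared groups alone, 9 to 21 without 1 line. For DE1 they were 1167 and 2376 with the block, 2304 with the compared groups alone, 374 to 705 without 1 line. For DE2 they were 2551 and 4139 with the block, 1564 with the compared groups alone, 957 without 7H1 and 1382 without 7H2. For the difference PS minus EPI they were 2 and 39 with the block, 1 with a pseudocount of 5, 0 with quantiles, 0 without trend, 0 with the compared groups alone, 0 without 7H2. For the difference DE1 minus PS they were 322 and 954 with the block, 512 with the compared groups alone, 71 to 136 without 1 line. For the difference DE2 minus DE1 they were 895 and 2258 with the block, 174 to 318 without 1 line. For vehicle DE2 minus DE1 they were 5914 and 3878 without 7H1. For PS minus EPI in DMSO they were 4132 and 1357 without 7H2.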

Other observations

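Among the 8 tested members, Pearson's r over the 24 libraries on the log scale ran from -0.75 (Frzb and Dkk3) to 0.96 (Shisa2 and Sfrp5). Shisa2 also followed Sfrp1 (0.90) and Dkk1 (0.78), although Sfrp1 was called in dTAG13 comparisons only with the block. These points share stage and library, and the values are a description. In DE2 line 7H2 went against the other two lines in both Dkk2 and Sfrp2, with dTAG13 at 151% of vehicle for Dkk2, against 23.3 and 16.1% in 7H and 7H1, and at 89.5% for Sfrp2, against 274 and 298%.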
